A study of Mus musculus with 6 samples.

Results

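The transcription factor AP-1 and companion immediate early genes are described here in mouse knee chondrocytes, as 10 genes of the 22032 in the deposited expression table. They comprise the FOS family (*Fos*, *Fosb*, *Fosl1* and *Fosl2*), the JUN family (*Jun*, *Junb* and *Jund*) and the stimulus-responsive genes *Egr1*, *Atf3* and *Ier2*. Members were matched to the table by name, through the symbol paired with each Ensembl identifier. Members and lists were chosen with earlier results of these data known. All 10 were found, and all passed the filter on low values, an average of 1 transcript per 1000000 (TPM) or more. TPM is a transcript's share of all transcripts, corrected for length, so that levels of different genes can be compared within a sample. RNA-seq was performed on 3 embryonic and 3 adult samples of sorted chondrocytes, negative for lineage markers and alkaline phosphatase and positive for BMPR1B, a bone morphogenetic protein receptor. The embryonic samples are from embryonic day 16.5, which the sample labels write as 16.5 weeks, and the adult samples are from mice aged 2 months. The adult mice were male and of the B6 strain. No genotype, allele or treatment separates the groups, and the strain and sex of the embryos and the number of animals in each sample are not given in the sources used here. The deposited design calls the 3 samples of each stage biological replicates.

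AP-1 is a dimer of basic leucine zipper proteins in which a JUN protein pairs with a FOS protein or with another JUN, and the dimer binds the sequence TGANTCA in promoters and enhancers. Immediate early genes are transcribed within minutes of a growth factor, cytokine, mechanical load or stress, without new protein synthesis, through MAP kinases that act on serum response factor, its ternary complex partners and CREB, and most of their transcripts decay fast. In cartilage AP-1 is known for its part in growth plate development and in the induction of matrix metalloproteinases by inflammatory signals. Mouse cartilage was digested with enzymes for hours and sorted before RNA was taken, and no sample without these steps was analysed here. A level present in the tissue and a level reached during isolation therefore cannot be told apart.

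Promoter windows of 7 of the 10 genes were found in the RefSeq table for GRCm38.p6, each from 250 bases before to 50 bases after a transcription start. They are shown for *Fos* and for 4 genes that differed most clearly between the stages, 5′ to 3′ on the gene's own strand, with capitals marking matches to the letters searched. The windows are chr12:85473640-85473939 on the plus strand for *Fos*, and on the minus strand chr7:19309996-19310295 for *Fosb*, chr4:95052173-95052472 for *Jun*, chr8:84978699-84978998 for *Junb* and chr1:191183284-191183583 for *Atf3*.
Fos: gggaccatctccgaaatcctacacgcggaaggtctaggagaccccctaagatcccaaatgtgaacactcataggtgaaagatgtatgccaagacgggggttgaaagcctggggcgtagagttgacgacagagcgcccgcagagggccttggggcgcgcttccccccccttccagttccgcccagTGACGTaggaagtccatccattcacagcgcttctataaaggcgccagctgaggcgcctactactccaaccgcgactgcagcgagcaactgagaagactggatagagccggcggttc
Fosb: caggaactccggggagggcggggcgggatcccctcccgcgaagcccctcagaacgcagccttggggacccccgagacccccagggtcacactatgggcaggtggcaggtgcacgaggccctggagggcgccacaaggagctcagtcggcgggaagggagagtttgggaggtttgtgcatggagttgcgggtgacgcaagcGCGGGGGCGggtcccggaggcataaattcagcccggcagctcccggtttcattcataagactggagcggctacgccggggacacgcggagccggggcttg
Jun: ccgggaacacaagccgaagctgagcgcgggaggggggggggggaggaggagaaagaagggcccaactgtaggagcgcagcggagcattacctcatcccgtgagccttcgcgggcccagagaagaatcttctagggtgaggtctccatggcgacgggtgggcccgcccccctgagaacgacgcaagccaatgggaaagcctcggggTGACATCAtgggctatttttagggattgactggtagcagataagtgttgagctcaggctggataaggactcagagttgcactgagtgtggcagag
Junb: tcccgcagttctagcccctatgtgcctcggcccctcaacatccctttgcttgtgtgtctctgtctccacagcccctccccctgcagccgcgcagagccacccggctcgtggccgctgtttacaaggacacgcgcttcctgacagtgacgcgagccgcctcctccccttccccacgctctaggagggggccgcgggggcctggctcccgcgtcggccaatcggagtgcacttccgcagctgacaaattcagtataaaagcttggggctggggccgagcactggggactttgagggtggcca
Atf3: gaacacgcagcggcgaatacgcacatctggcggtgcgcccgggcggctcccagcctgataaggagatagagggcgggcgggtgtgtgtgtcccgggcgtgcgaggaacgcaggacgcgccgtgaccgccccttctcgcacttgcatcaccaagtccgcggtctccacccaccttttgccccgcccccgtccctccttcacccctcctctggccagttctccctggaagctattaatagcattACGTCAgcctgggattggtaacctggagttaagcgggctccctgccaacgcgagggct

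The letters searched on both strands, chosen with these sequences in view, were the AP-1 site TGANTCA, the core TGACGT of the cyclic AMP response element bound by CREB and ATF proteins, TGACATCA, the EGR site GCGGGGGCG and the CArG box of serum response factor. No window held more than 1 match, so none overlapped. TGACGT stood in the *Fos* window, its first base 66 bases before the start, and on the opposite strand in the *Atf3* window, 8 bases before the start. It was present in 7.51% of the 32851 promoters in the table. TGACATCA stood in the *Jun* window 45 bases before the start, against 3.62% of all promoters. GCGGGGGCG stood in the *Fosb* window 50 bases before the start and in the *Fosl2* window 79 bases before it, against 2.91% of all promoters. TGANTCA and the CArG box were in none of the 7 windows, against 7.81% and 1.63% of all promoters, and the *Junb* window held none of the searched letters. Nothing further than 250 bases before a start was searched, and *Egr1*, *Fosl1* and *Ier2* had no window. The absence of a match thus holds for these windows only and does not show that a gene lacks the site. The *Jund* window, 1 of the 7, lies upstream of the gene's annotated start and is not shown. The *Atf3* and *Fosl2* windows lie inside the annotated genes, so their distances are from a start within the gene and not from its outer end. These matches describe letters in a window and no binding.

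In the GENCODE M21 annotation of GRCm38, *Fos* lies on chromosome 12 from 85473890 to 85477273, *Fosb* on chromosome 7 from 19302696 to 19310051, *Jun* on chromosome 4 from 95049034 to 95052222, *Junb* on chromosome 8 from 84974484 to 84978718 and *Atf3* on chromosome 1 from 191170296 to 191218039. All 10 members are protein coding. *Jun*, *Junb*, *Jund* and *Ier2* each have 1 exon in their longest transcript, whereas the FOS genes and *Atf3* have 4. Genes on the opposite strand share exon bases with 4 of the members. *Ccdc85b* shares 1163 of the 2033 exon bases of *Fosl1*, *Gm11175* 877 of the 1668 of *Jund*, *Junos* 232 of the 3189 of *Jun* and *Prdx2* 173 of the 2301 of *Junb*. Counting by strand is not stated in the methods, and without it reads from such a pair cannot be told apart. *Ccdc85b* was listed at 35.3 to 70.4 TPM and *Junos* at 0 to 15.1 TPM over the 6 samples, below every value of *Fosl1* and *Jun*. *Prdx2* ran from 121 to 137 TPM at the embryonic and from 87.5 to 94.2 TPM at the adult stage, and *Gm11175* was not in the table.

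The sorted cells were checked against cell type markers. Chondrocyte genes were present in every sample, and the summed TPM of 10 of them ran from 26403 to 28084 at the embryonic stage and from 10006 to 13073 at the adult stage. *Col2a1*, with a mean of 14689 TPM in embryonic and 4706 TPM in adult samples, was the largest part of that sum. Of the 10, *Comp* and *Sox9* rose (limma adjusted p = 3.8e-05 and 0.01), 7 fell and *Acan* did not pass (limma adjusted p = 0.0717). The embryonic range came before the adult range in each of the following sums of markers. Skeletal muscle gave 71.5 to 72.1 and 4.37 to 24.2 TPM, endothelium 10.9 to 34.1 and 5.12 to 13.9, leukocytes 5.67 to 13.7 and 19.0 to 109, erythroid cells 0 to 104 and 1.41 to 33.8, and keratinocytes 0.199 to 1.46 and 0.405 to 2.44. Only *Des* of the 6 muscle markers tested passed, with a log2 difference of -4.69 (limma adjusted p = 9.8e-06). Only *Tek* of the 3 endothelial markers tested passed, with a log2 difference of -3.04 (limma adjusted p = 9.8e-04). *Pecam1* went the other way, with every adult value above every embryonic one, but did not pass (log2 difference 0.96, limma adjusted p = 0.123). Of the 8 leukocyte markers, *Cd3e* and *C1qa* were listed at 0 in all 6 samples, while the myeloid genes *Cd68* (4.22, 5.87 and 12.6 TPM in embryonic and 33.3, 17.2 and 27.5 TPM in adult samples, limma adjusted p = 0.00967) and *S100a8* (0 in every embryonic sample and 36.4, 0 and 41.5 TPM in adult samples, limma adjusted p = 0.0469) rose. *Lyz2* and *Cd79a* did not pass (limma adjusted p = 0.0642 and 0.541). *Ptprc* and *Csf1r* were below the filter, and *Csf1r* had a mean of 0.684 TPM in embryonic and 0.523 TPM in adult samples. Of the 3 keratinocyte markers, *Krt5* and *Krt14* were listed at 0 in all 6 samples. Smooth muscle and pericyte markers gave 213 to 235 and 119 to 154 TPM, fibroblast and tendon markers 881 to 1071 and 233 to 352 TPM, and osteoblast markers 26.9 to 60.8 and 284 to 432 TPM. Of the 5 osteoblast markers *Ibsp*, *Bglap* and *Alpl* rose, *Dmp1* fell by 2.92 on the log2 scale (limma adjusted p = 0.00495) and *Sp7* did not pass. *Ibsp*, at 316, 235 and 308 TPM in the adult samples, made up most of the sum. *Alpl*, the gene of the alkaline phosphatase that the sort selects against, had 15.4, 14.4 and 17.9 TPM in embryonic and 38.6, 32.7 and 36.0 TPM in adult samples. The part of these shifts in the differences given next was not tested, and fewer cells of a type cannot be told apart from less RNA per cell. TPM keeps no sequencing depth, and read totals were not used here, so no counting interval is given.

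All 10 genes were detected in every sample, from 45.3 TPM (*Jund*, adult replicate 1) to 1067 TPM (*Egr1*, embryonic replicate 3). Their summed level was 4070 ± 261 TPM (SD, n = 3) in embryonic and 3173 ± 229 TPM (SD, n = 3) in adult chondrocytes. *Egr1*, a zinc finger factor induced by serum and growth factors, was the most abundant of the 10 at both stages and ranked between 95 and 167 among all 22032 genes. At the embryonic stage the order of mean TPM was *Egr1*, *Atf3*, *Fosl1*, *Jun*, *Fos*, *Junb*, *Ier2*, *Fosb*, *Fosl2* and *Jund*. The ranges of *Jun* and *Fos*, of *Junb* and *Ier2* and of *Ier2* and *Fosb* overlapped there, and those of the other neighbours did not. At the adult stage the order was *Egr1*, *Fos*, *Fosl1*, *Junb*, *Jun*, *Ier2*, *Fosl2*, *Atf3*, *Fosb* and *Jund*. Here the ranges of *Fosl1* and *Junb*, of *Jun* and *Ier2*, and of each neighbouring pair from *Fosl2* to *Jund* overlapped. *Atf3* stood at position 2 in the embryonic and at position 8 in the adult order.

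**Figure D1:**
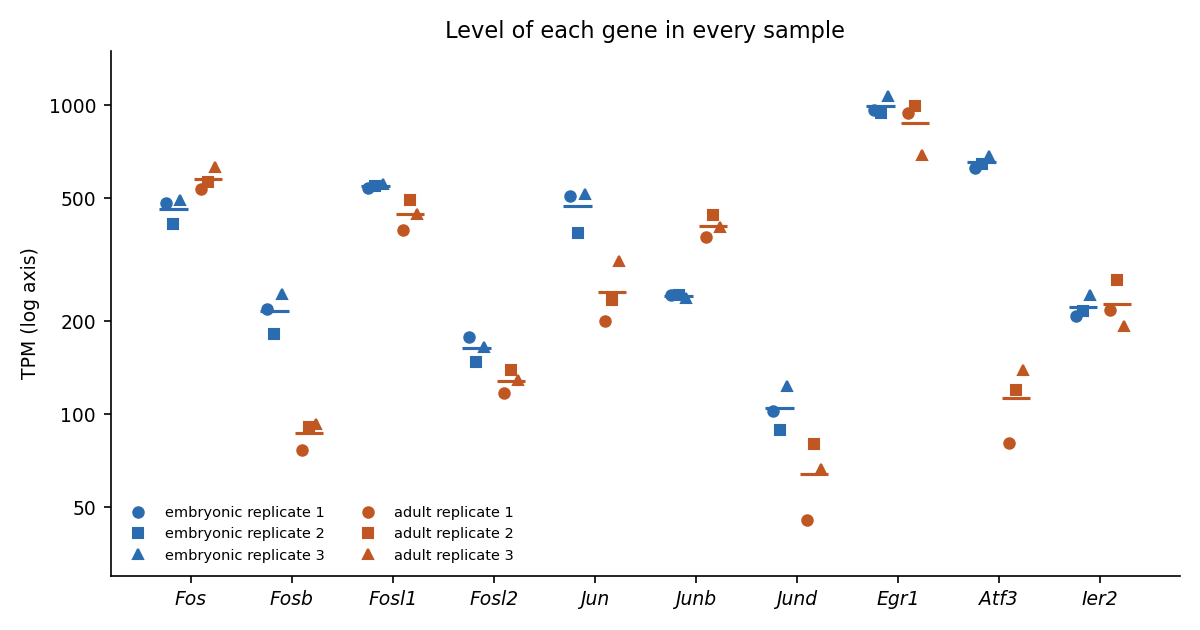
Level of the 10 genes in TPM on a log axis, with 1 point for each of the 3 embryonic and 3 adult samples and a bar at the mean of each stage. The adult points of *Atf3* (80.5 to 138 TPM) lie far below the embryonic ones (627 to 685 TPM), and those of *Junb* lie above.

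Adult and embryonic chondrocytes were compared with limma over the 13125 genes that passed the filter, on log2(TPM + 1). Of the 10 genes, *Junb* rose and *Atf3*, *Fosb*, *Jun* and *Jund* fell in adult chondrocytes at a Benjamini-Hochberg adjusted p under 0.05, and 5 did not pass. Among all genes tested 45.3% passed, 23.9% higher and 21.4% lower, so the count of 5 in 10 is near that background and is not a result about these genes. The values of the stages did not overlap for 8 of the 10, with the adult samples above for 2 and below for 6, against 56.5% of all genes tested (30.7% above and 25.9% below). The median log2 difference of the 10 was -0.32 and that of all genes tested 0.16. Scaling by the median of ratios moved the median of all genes to 0.028, so each difference is also read against that shift. The median of the 10 was -0.47 with that scaling and -0.18 with quantile normalization. Relative to the median of all genes, *Atf3* differed by -2.71, *Fosb* by -1.45, *Jun* by -1.08, *Jund* by -0.89 and *Junb* by 0.59. With median-of-ratios scaling 1 member was called higher and 6 lower, *Fosl1* and *Fosl2* being added, where 19.9% of all genes were higher and 24.7% lower. With quantile normalization 2 were higher and 4 lower, *Fos* being added, where 21.3% of all genes were higher and 21.6% lower. The same counts were reached once the 20 highest genes were removed, where the shares were 26.7% and 19.2%.

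*Atf3*, a stress-induced member of the ATF/CREB family that dimerizes with JUN proteins and can repress transcription, had the largest difference of the 10. The embryonic samples held 627, 645 and 685 TPM, and the adult samples held 80.5, 119.8 and 138 TPM. The stages were far apart, and the embryonic values lay close together. Mean TPM was 5.78-fold lower in adult chondrocytes, with a log2 difference of -2.56 (standard error 0.19, limma adjusted p = 2.0e-05). *Atf3* ranked between 200 and 230 among all genes at the embryonic stage and between 1319 and 2394 at the adult stage.

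*Atf3* is itself a gene of the integrated stress response, and 7 other genes of that response were read beside it. Of these 2 rose, 1 fell and 4 did not pass, near the 45.3% of all genes that passed. Their median log2 difference of 0.17 was 0.071 without adult replicate 2, 0.26 without adult replicate 1 and 0.024 with median-of-ratios scaling. *Ddit3*, which encodes the pro-apoptotic factor CHOP, rose by 0.93 on the log2 scale (limma adjusted p = 0.00209) and *Trib3*, a pseudokinase induced by ATF4 and CHOP, by 1.02 (limma adjusted p = 0.00279). *Sesn2*, which restrains mTORC1 signaling, fell by 1.36 (limma adjusted p = 7.0e-04). *Atf4*, the central factor of the response, differed by -0.25 (limma adjusted p = 0.0928) and *Asns*, asparagine synthetase, by 0.21 (limma adjusted p = 0.181). With median-of-ratios scaling 2 of the 7 were higher and 2 lower, *Atf4* being added at -0.39 (adjusted p = 0.0206).

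Within the JUN family *Jun* and *Junb* moved in opposite directions. c-JUN, the product of *Jun*, is a strong transcriptional activator that promotes cell cycle entry. *Jun* stood at 509, 386 and 516 TPM in embryonic chondrocytes, against 199.5, 235 and 313 TPM in adult ones. Every adult value was below every embryonic one, and embryonic replicate 2 and adult replicate 3 were the nearest. The log2 difference was -0.93 (standard error 0.188, limma adjusted p = 0.00417), a 1.89-fold lower mean TPM. JUNB is a weaker activator that can oppose c-JUN at single AP-1 sites. *Junb* stood at 244, 243 and 237 TPM in embryonic chondrocytes, against 374, 440.1 and 404 TPM in adult ones. Its embryonic values lay within a narrow range and all adult values were above them, a 1.68-fold higher mean TPM (log2 difference 0.75, standard error 0.114, limma adjusted p = 9.9e-04).

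*Jund*, whose product is common in resting cells and often restrains growth, had the lowest mean of the 10 at both stages. Embryonic chondrocytes had 102, 88.5 and 123 TPM of it, and adult ones 45.3, 79.8 and 66.3 TPM. The adult values were lower, with adult replicate 2 and embryonic replicate 2 the nearest to each other (log2 difference -0.73, standard error 0.226, limma adjusted p = 0.0278). This call was lost without embryonic replicate 1 (adjusted p = 0.0756), embryonic replicate 3 (adjusted p = 0.107) or adult replicate 1 (adjusted p = 0.0667), and without limma's variance trend (adjusted p = 0.0714). Over the 14 alternatives its adjusted p ran from 0.0108 to 0.107.

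The make-up of the JUN family was followed as each gene's percentage of the family's summed TPM, a ratio within a sample that scaling between samples does not change. *Jun* held 59.5%, 53.8% and 58.9% of the family in embryonic chondrocytes and 32.2%, 31.1% and 40.0% in adult ones. For *Junb* the embryonic shares were 28.5%, 33.9% and 27.0%, and the adult shares were 60.5%, 58.3% and 51.6%. *Jun* was thus the leading JUN transcript in every embryonic sample and *Junb* in every adult sample. *Jund* held 12.8% ± 1.13 (SD, n = 3) at the embryonic and 8.79% ± 1.65 (SD, n = 3) at the adult stage, with no overlap. Each of these shares gave p = 0.1 in an exact two-sided permutation test, the smallest that 3 samples against 3 allow (adjusted p = 0.133 over the 8 ratios computed), so the design cannot reach 0.05. Summed TPM of the family was 816 ± 85.6 (SD, n = 3) for embryonic and 719 ± 87.6 (SD, n = 3) for adult chondrocytes, and the values of the stages overlapped.

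**Figure D2:**
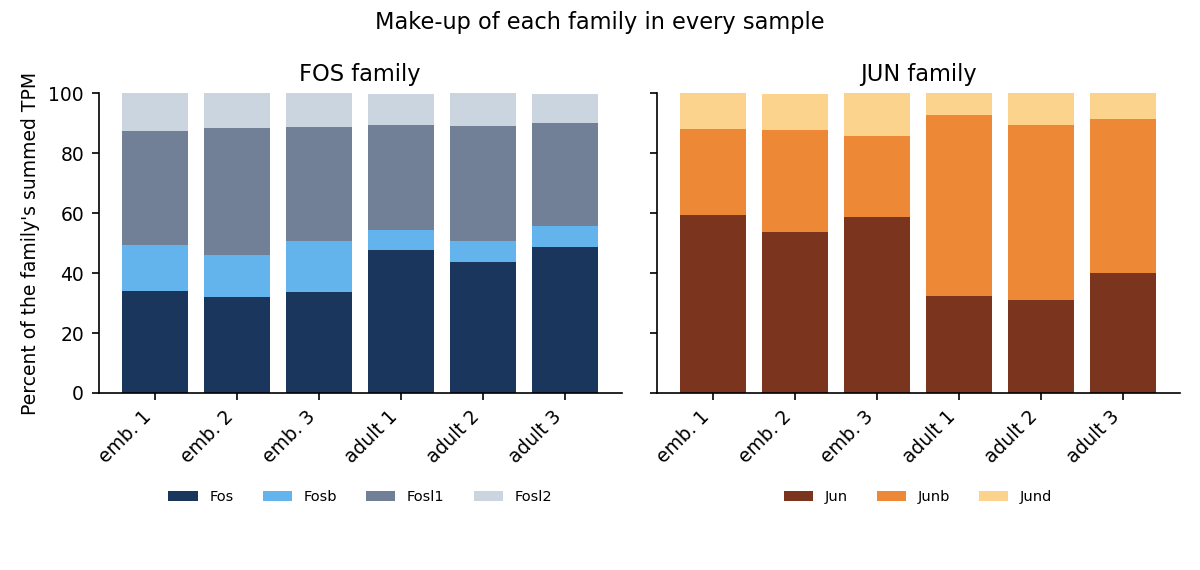
Stacked bars give, for each of the 6 samples, the percentage of the summed TPM of the FOS family (left) and the JUN family (right) held by each gene. *Jun* takes 53.8% to 59.5% of the JUN family at the embryonic stage but 31.1% to 40.0% at the adult stage, where *Junb* takes 51.6% to 60.5%.

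Among the FOS genes *Fosb* fell, and the remaining members differed by smaller amounts that did not pass. *Fosb*, whose truncated isoform accumulates under repeated stimulation, gave 219, 181 and 246 TPM in embryonic and 76.6, 90.9 and 93.0 TPM in adult chondrocytes. The stages were well apart, with a 2.48-fold lower mean TPM at the adult stage (log2 difference -1.29, standard error 0.156, limma adjusted p = 2.7e-04). *Fos* encodes c-FOS, the prototype of an immediate early protein. It gave 481, 412 and 492 TPM in embryonic and 536, 566 and 633 TPM in adult chondrocytes. All adult values were above all embryonic ones, but the difference did not pass the threshold (log2 difference 0.32, 95% interval 0.04 to 0.61, limma adjusted p = 0.0624). It passed with quantile normalization (adjusted p = 0.00777), once the 20 highest genes were removed (adjusted p = 0.0217) and once adult replicate 1 was left out (adjusted p = 0.0495), and over all alternatives its adjusted p ran from 0.00777 to 0.248. Relative to the median of all genes *Fos* differed by 0.17.

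*Fosl1* encodes FRA-1, a FOS protein without the transactivation domain of c-FOS that is made later after a stimulus. Its embryonic values were 539, 546 and 554 TPM and its adult values 394, 495 and 445 TPM. The embryonic values were nearly equal and all adult values were below them, yet the log2 difference of -0.30 (95% interval -0.58 to -0.028) did not pass (limma adjusted p = 0.0695). It passed with median-of-ratios scaling (adjusted p = 0.0157) and without adult replicate 2 (adjusted p = 0.0328), over a range of 0.0157 to 0.514. *Fosl2* encodes FRA-2, known for its part in chondrocyte and osteoblast differentiation. Its embryonic values were 178, 147 and 165 TPM and its adult values 117, 139 and 129 TPM, again without overlap (log2 difference -0.35, 95% interval -0.65 to -0.038, limma adjusted p = 0.0656). The adjusted p of *Fosl2* was 0.0138 with median-of-ratios scaling, and over the alternatives it ran from 0.0138 to 0.197.

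In the FOS family *Fos* held 33.9%, 32.0% and 33.8% of the summed TPM in embryonic chondrocytes, against 47.7%, 43.8% and 48.7% in adult ones, while *Fosb* held 15.5% ± 1.39 and 7.01% ± 0.173 (SD, n = 3 each). *Fosl1* led the family in every embryonic sample, with 38.0% to 42.4%, and *Fos* in every adult sample. In embryonic replicates 1, 2 and 3 *Fosl1* had 539, 546 and 554 TPM and *Fos* 481, 412 and 492 TPM. *Ccdc85b*, which shares exon bases with *Fosl1*, had 70.0, 65.3 and 43.2 TPM there. The part of its reads in the lead of *Fosl1* was not tested. The shares of *Fos*, *Fosb* and *Fosl2* did not overlap between the stages, and each had the smallest possible exact permutation p of 0.1. That of *Fosl1* overlapped (39.5% ± 2.55 and 35.9% ± 2.16, SD, n = 3 each, exact permutation p = 0.3, adjusted p = 0.343). The log2 ratio of summed FOS to summed JUN family TPM was 0.77 ± 0.063 at the embryonic and 0.79 ± 0.065 at the adult stage (SD, n = 3 each). Its difference of 0.020 was smaller than the spread between replicates (exact permutation p = 0.6). By listed TPM, the leading gene of each family thus differed between the stages, with the limit given for *Fosl1*. No difference in the ratio of the families was detectable with 3 samples a stage.

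For *Egr1* and *Ier2* the difference between the stages was within the spread of the replicates. *Egr1* had values of 968, 941 and 1067 TPM at the embryonic and 945, 991 and 689 TPM at the adult stage. The stages overlapped, and adult replicate 3 was the lowest (log2 difference -0.20, 95% interval -0.55 to 0.16, limma adjusted p = 0.331). *Ier2*, a small nuclear protein of the immediate early response, had values of 208, 216 and 244 TPM at the embryonic and 218, 271 and 193 TPM at the adult stage. These too overlapped (log2 difference 0.022, 95% interval -0.32 to 0.37, limma adjusted p = 0.914). The sign of *Ier2* turned with median-of-ratios scaling (-0.12), and that of *Egr1* with quantile normalization (0.078).

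**Figure D3:**
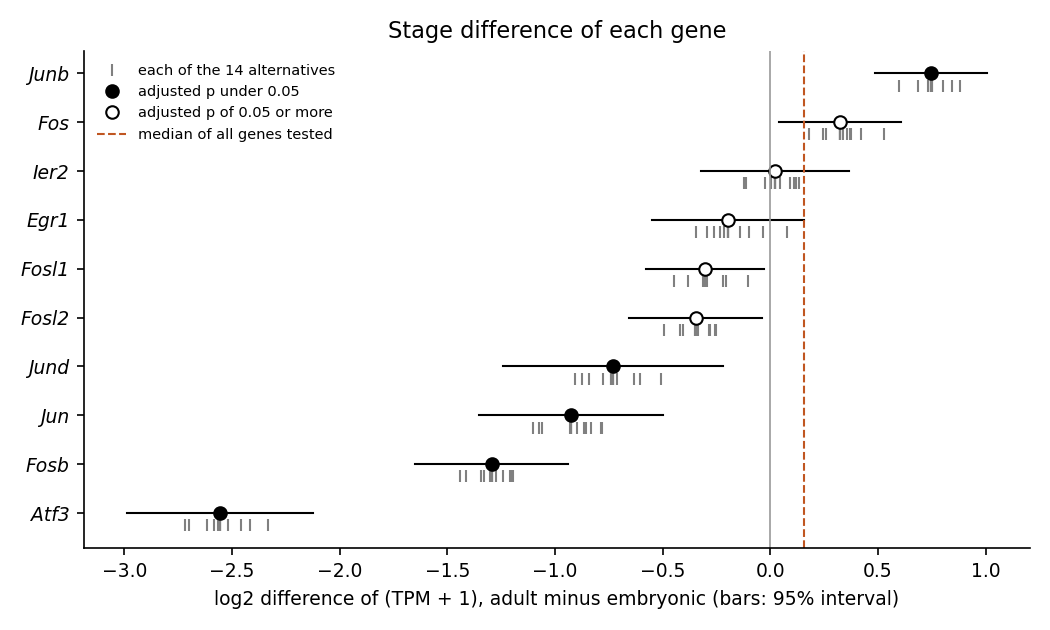
Log2 difference of (TPM + 1), adult minus embryonic, for the 10 genes, with the 95% interval as a bar, the 14 alternative analyses as ticks and the median of all genes tested, 0.16, as a dashed line. *Atf3* at -2.56 is lowest and *Junb* at 0.75 highest.

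Partners and competitors of AP-1 divided between the directions. Of 11 listed genes 10 were tested, of which 3 were higher, 4 lower and 3 did not pass, against 23.9% higher and 21.4% lower of all genes. Their median log2 difference of -0.37 was -0.093 without adult replicate 2, -0.79 without adult replicate 3 and -0.83 with a pseudocount of 0.1. The small MAF proteins, which lack a transactivation domain and compete at related sites, went different ways. *Mafg* rose by 0.79 (limma adjusted p = 0.00292) and *Mafk* by 0.97 (limma adjusted p = 4.1e-04), while *Maff* fell by 1.55 (limma adjusted p = 6.8e-04), all on the log2 scale. The third gene that rose, named after its values were seen, was *Atf7*, a relative of ATF2 (1.01, limma adjusted p = 0.00111). *Jdp2*, a JUN dimerization protein that represses AP-1, had 213, 229 and 198 TPM at the embryonic and 76.6, 45.1 and 49.2 TPM at the adult stage (log2 difference -1.92, limma adjusted p = 1.3e-04). *Maf*, a large MAF factor, fell by 2.65 (limma adjusted p = 0.00384). *Batf3*, a partner of JUN proteins in immune cells, had 22.0, 12.8 and 19.8 TPM in embryonic samples and was listed at 0, 2.99 and 0 TPM in adult samples, and *Batf2* was listed at 0 in all 6.

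Genes that induce the immediate early response were read as transcripts, which do not show kinase activity. Of 20 genes 4 were higher, 5 lower and 11 did not pass, near the 45.3% of all genes that passed. The number called was 5 without embryonic replicate 1, 2 or 3, where 35.1%, 36.2% and 35.7% of all genes passed. The median log2 difference of 0.22 was 0.074 with median-of-ratios scaling. Without the 20 highest genes 6 were higher and 4 lower, and with median-of-ratios scaling 3 and 6. *Srf*, serum response factor, had 46.4, 58.7 and 46.2 TPM at the embryonic and 19.9, 27.9 and 21.2 TPM at the adult stage (log2 difference -1.11, limma adjusted p = 0.00313). *Mapk9*, which encodes the c-JUN kinase JNK2, rose by 1.56 (limma adjusted p = 6.0e-04), with 11.2 to 15.4 TPM in embryonic and 40.9 to 44.5 TPM in adult chondrocytes. The others that rose, named after their values were seen, were the p38 kinase gene *Mapk14* (0.80, limma adjusted p = 0.0303), *Map2k1* (0.93, limma adjusted p = 0.00482) and *Creb1* (0.84, limma adjusted p = 0.0109). *Map2k4* and the ribosomal S6 kinase gene *Rps6ka3*, named likewise, fell by 0.78 and 0.85 (limma adjusted p = 0.0181 and 0.00672). *Rps6ka1*, which encodes a further S6 kinase, fell by 1.34 (limma adjusted p = 0.0375). Its call was lost without any single sample other than adult replicate 1, at 0.109, 0.0998 and 0.092 for embryonic replicates 1, 2 and 3 and at 0.104 and 0.0857 for adult replicates 2 and 3, and also with no filter (0.0701). Among the most abundant of the list, *Atf1* and the ternary complex factor gene *Elk3* differed by 0.38 (limma adjusted p = 0.249) and 0.13 (limma adjusted p = 0.546).

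Of 14 feedback genes that limit or end the response, 7 fell, 2 rose and 5 did not pass. Among all genes tested 21.4% fell and 23.9% rose. Their median log2 difference was -0.99, and between -1.14 and -0.90 under the other scalings. *Dusp1*, a nuclear MAP kinase phosphatase gene that is itself an immediate early gene, had 359, 371 and 396 TPM at the embryonic and 786, 793 and 737 TPM at the adult stage. All adult values were far above the embryonic ones, a 2.06-fold higher mean (log2 difference 1.04, limma adjusted p = 1.2e-04). The other gene that rose, named after its values were seen, was the antiproliferative gene *Btg2* (0.81, limma adjusted p = 0.0144). *Dusp2*, a further nuclear phosphatase gene, had 32.0, 24.5 and 21.6 TPM in embryonic samples and was listed at 0, 0 and 0.161 TPM in adult samples. *Dusp4* fell by 2.32 (limma adjusted p = 0.00887) and *Dusp10*, whose product acts on JNK and p38, by 2.41 (limma adjusted p = 0.00221). The decay factor genes *Zfp36* and *Zfp36l1*, whose products bind AU-rich elements in such transcripts, differed by 0.16 (limma adjusted p = 0.478) and -0.091 (limma adjusted p = 0.694), and the sign of the latter turned under quantile normalization, once the 20 highest genes were removed and once adult replicate 1 was left out.

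The list of other immediate early genes held 33 genes, of which 31 were tested, *Egr4* and *Npas4* being below the filter. At the adult stage 18 were lower, 4 higher and 9 did not pass, where 21.4% of all genes tested were lower and 23.9% higher. The median log2 difference was -0.97, and it was -0.50 without adult replicate 1. The orphan nuclear receptor genes *Nr4a3* and *Nr4a1* had the largest differences. *Nr4a3* went from 139, 147 and 153 TPM to 13.2, 24.0 and 11.3 TPM (log2 difference -3.17, limma adjusted p = 3.5e-05) and *Nr4a1* from 318, 319 and 301 TPM to 33.2, 28.4 and 73.1 TPM (log2 difference -2.90, limma adjusted p = 1.3e-04). *Egr3*, a relative of *Egr1*, went from 75.8, 62.4 and 54.5 TPM to 5.58, 23.9 and 4.02 TPM (log2 difference -2.79, limma adjusted p = 0.00302), and adult replicate 2 was the highest of its stage. The matricellular genes *Ccn2* and *Ccn1* went apart. *Ccn2*, connective tissue growth factor, rose by 2.52 (limma adjusted p = 9.9e-06), with 904 to 1071 TPM in embryonic and 4748 to 6933 TPM in adult chondrocytes. *Ccn1* fell by 1.36 (limma adjusted p = 1.5e-04), with 1225 to 1558 TPM in embryonic and 498 to 642 TPM in adult chondrocytes. The others that rose, named after their values were seen, were the glucocorticoid-responsive kinase gene *Sgk1* (1.40, limma adjusted p = 3.2e-04), the growth arrest gene *Gadd45a* (1.33, limma adjusted p = 1.4e-04) and *Ier3* (0.63, limma adjusted p = 0.0183). *Errfi1*, an inhibitor of EGF receptor signaling, fell by 0.41 (limma adjusted p = 0.0358). That call was lost without any single sample other than adult replicate 1, at 0.108, 0.116 and 0.0755 for embryonic replicates 1, 2 and 3 and at 0.0776 and 0.063 for adult replicates 2 and 3. It was also lost with no filter (0.063), quantile normalization (0.36), the 20 highest genes removed (0.0856), no variance trend (0.126) and the replicate block (0.0771).

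**Figure D4:**
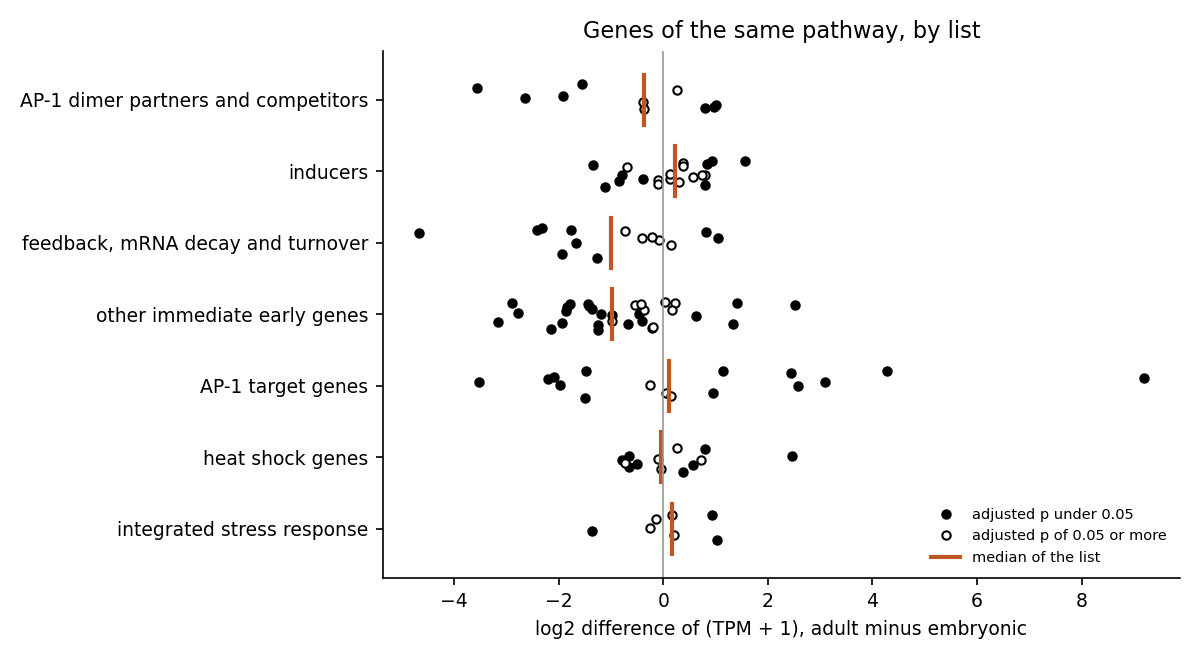
Each point is 1 tested gene of the 7 lists around AP-1, placed by its log2 difference of (TPM + 1), adult minus embryonic, with a bar at the list's median. Medians of the feedback genes (-0.99) and the other immediate early genes (-0.97) lie below 0, and the AP-1 target genes spread to both sides.

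Genes that AP-1 is known to induce did not move together. Of 16 genes 7 were higher, 6 lower and 3 did not pass, against 23.9% higher and 21.4% lower of all genes tested. The median log2 difference of 0.10 changed sign with median-of-ratios scaling (-0.02), with quantile normalization (-0.022) and with a filter at 5 TPM (-0.057), and was 0.012 without embryonic replicate 2 and 0.21 without adult replicate 2. *Mmp3*, which encodes stromelysin-1, went from 7.76, 7.58 and 13.2 TPM to 6516, 4182 and 7697 TPM (log2 difference 9.19, limma adjusted p = 1.1e-07). *Mmp13*, collagenase-3, went from 4.9, 7.8 and 14.4 TPM to 143, 179 and 226 TPM (log2 difference 4.28, limma adjusted p = 2.9e-05). Both were low in every embryonic sample and higher in every adult one. *Hmox1*, heme oxygenase 1, rose by 3.09 (limma adjusted p = 4.1e-07), with 402 to 455 TPM in embryonic and 3579.8 to 3660.4 TPM in adult chondrocytes. *Spp1*, osteopontin, rose by 2.45 (limma adjusted p = 5.5e-05) and *Timp1*, a metalloproteinase inhibitor gene, by 1.14 (limma adjusted p = 0.00148). *Ccnd1*, which encodes the G1 cyclin D1, fell by 3.52 (limma adjusted p = 5.8e-05), with 60.3 to 78.7 TPM in embryonic and 3.51 to 8.69 TPM in adult chondrocytes. *Spp1* is also expressed by osteoblasts. Of the 5 osteoblast markers 3 rose and 1 fell, as given above, alkaline phosphatase-positive cells are removed by the sort, and the part of such cells in the difference of *Spp1* was not tested.

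Heat shock genes, which respond to misfolded protein and to cell isolation, were read beside the immediate early genes. Of 13 genes 4 were higher, 4 lower and 5 did not pass, against the 45.3% of all genes that passed. The number called was 5 without embryonic replicate 3, where 35.7% of all genes passed, and also without limma's variance trend, where 41.6% did. The median log2 difference was -0.044, against -0.19 with median-of-ratios scaling, 0.21 with quantile normalization, 0.20 once the 20 highest genes were removed, -0.10 and 0.037 without embryonic replicates 2 and 3, and 0.075, -0.11 and -0.0067 without adult replicates 1, 2 and 3. The inducible chaperone gene *Hspa1b* went from 239.6, 159 and 221 TPM to 658, 1461 and 1497 TPM (log2 difference 2.47, limma adjusted p = 3.2e-04). It has a near-identical copy, *Hspa1a*, so that reads can be split between them with uncertainty. *Hspa1a* went from 139, 151 and 246 TPM to 156, 287 and 517 TPM (limma adjusted p = 0.167), with overlap between the stages. *Hspb1*, a small heat shock protein gene, rose by 0.79 (limma adjusted p = 0.0036). *Dnajb1*, a co-chaperone gene, fell by 0.79 (limma adjusted p = 0.0141). That call was lost, at 0.0544 and 0.0623, once embryonic replicate 2 or 3 was left out. Other calls, named after their values were seen, were *Bag3* (0.57, limma adjusted p = 0.00991), *Hspd1* (-0.66, limma adjusted p = 0.00732) and *Dnajb4* (-0.66, limma adjusted p = 0.0103). *Hspa8* rose by 0.38 (limma adjusted p = 0.0323), *Hsp90aa1* fell by 0.50 (limma adjusted p = 0.0113) and *Hsp90ab1* differed by -0.094 (limma adjusted p = 0.59). The call of *Hspa8* was lost without embryonic replicates 1, 2 or 3 (adjusted p = 0.15, 0.112 and 0.112) or adult replicate 3 (0.0671), and also with no filter (0.119), quantile normalization (0.202), median-of-ratios scaling (0.178), no variance trend (0.101) and the replicate block (0.124). That of *Hsp90aa1* was lost without embryonic replicate 3 (adjusted p = 0.081), with no variance trend (0.0546) and with the replicate block (0.0527). The part of a stress response in the stage differences of the AP-1 genes was not tested.

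As a description, the genes most like *Fos* over the 6 samples by Pearson's r of log2(TPM + 1) were *Rab43* (r = 0.995), *Tigar* (r = 0.994) and *Itpk1* (r = 0.993), and those most like *Jun* were *Zfp451* (r = 0.999), *Slit3* (r = 0.999) and *Prickle2* (r = 0.995). None is among the 10 genes. All 6 points share the division into stages, and 142 genes reached an r over 0.95 with *Fos* and 378 with *Jun*. *Zfp451* had 70.9, 53.9 and 70.1 TPM in embryonic and 27.8, 33.9 and 43.1 TPM in adult chondrocytes. Like *Jun*, it was lowest in replicate 2 of the embryonic samples and highest in replicate 3 of the adult samples.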

How the data were processed

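The authors mapped reads to GRCm38 with RefSeq annotations, estimated levels with RSEM (version not given in the sources used here) and deposited log2(TPM + 1) per gene. EBSeq, named in the methods, needs counts and was not used. Of 22032 identifiers 21902 had a symbol. Stages were compared with limma 3.58.1 in R 4.3.3 (eBayes with trend, pseudocount 1, genes averaging 1 TPM or more, Benjamini-Hochberg over all genes). The fit was also run on simulated data with few changed genes and equal spread in both stages, a setting unlike these data. Within-family ratios were compared by exact permutation (scipy 1.17.1). P-values measure the spread between 3 samples a stage. Members, lists, motifs and tests were chosen with earlier results of these data known. Named genes are all members and, from each list, the 3 most abundant and the 3 largest called differences, and others are named as such. Some genes that the rule names are not reported here. As 14 alternatives, the fits were repeated with a pseudocount of 0.1, filtering at 5 TPM or not at all, 3 other scalings (quantile, median of ratios, the 20 highest genes removed), eBayes without trend, a replicate block and the omission of each sample.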

Additional observations from a re-analysis of the deposited data

How the results depend on the processing

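The calls of *Junb*, *Atf3*, *Fosb* and *Jun* kept their direction and their side of the threshold in all 14 alternatives, with log2 differences of 0.60 to 0.88, -2.72 to -2.33, -1.44 to -1.19 and -1.10 to -0.78. Among the named genes of the companion lists 32 of 41 did so. With single samples left out, 1 to 2 members were called higher and 3 to 5 lower. In those fits 18.6% to 21.3% of all genes were higher and 16.5% to 21% lower. Quantile normalization and the removal of the 20 highest genes each gave 2 higher (21.3% and 26.7% of all genes), and median-of-ratios scaling gave 6 lower (24.7% of all genes). Differences that had not passed changed sign for *Egr1* (0.078), *Atf4* (0.061) and *Zfp36l1* (0.055) under quantile normalization, for *Ier2* (-0.12) and *Elk3* (-0.021) under median-of-ratios scaling, and for *Zfp36l1* (0.0058) once the 20 highest genes were removed. With single samples left out, *Ier2* ran from -0.11 to 0.13 (negative without embryonic replicate 1 or adult replicate 2), *Zfp36l1* from -0.25 to 0.11 (positive without adult replicate 1) and the FOS to JUN log2 ratio difference from -0.016 to 0.056 (negative without adult replicate 1). Called inducers numbered 5 to 9 (5 without embryonic replicate 1, 2 or 3) and called heat shock genes 5 to 9 (5 without embryonic replicate 3), where 35.1% to 42.3% of all genes passed. Without limma's trend 5 heat shock genes were called, where 41.6% of all genes passed. The causes were not tested. Same-numbered samples showed no shared deviation over all genes (correlations of -0.0088, -0.017 and -0.022). With 3 samples a stage, such correlations cannot decide whether the numbers pair the stages. With the replicate number as a block, 2871 genes were called higher and 2559 lower in place of 3140 and 2809, and no call of a member changed. TPM keeps no depth and read totals were not used here, so no limit set by depth is given.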
